A study of Mus musculus with 6 samples.

Results

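Sugar and monocarboxylate transporters of the proximal tubule were examined as a family of 10 genes in dissected mouse tubules with and without Clcn5. The members were given as a list of names, and their probe sets were all those annotated with a single gene symbol that is one of the 10. This gave 17 probe sets out of 45037 that are not controls, and 10 genes out of 18193 with a single-symbol probe set. Affymetrix mouse arrays had been used to read transcript levels, with 3 arrays for tubules of Clcn5 knockout mice and 3 for those of wild type mice. The product of Clcn5, ClC-5, exchanges chloride for protons across the membrane of endosomes. From each kidney 80 to 100 tubule pieces of 2 mm were dissected by hand, and RNA of several mice was pooled for each array. The series text gives 3 to 4 mice per pool and the array records give 7 per pool, which could not be settled. The labels used here give no strain, age or sex, nor the part of Clcn5 that was deleted. Pools are taken as the replicates, so the spread between arrays is that between pools and not between single mice. The sample titles number the arrays of each group and do not state that the pools were separate.

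Filtered glucose is reclaimed in the proximal tubule by carriers that use the sodium gradient at the brush border, and leaves the cell through facilitative carriers at the basolateral side. SGLT2, encoded by Slc5a2, does most of this work in the early tubule, and SGLT1, encoded by Slc5a1, takes up what remains further along. Lactate and other monocarboxylates are reclaimed by sodium-coupled carriers of the same SLC5 family and cross membranes with protons through MCT1. The loss of glucose and other solutes into urine is one feature of generalised proximal tubule dysfunction, which makes these genes of interest where an endosomal exchanger is missing.

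Clcn5 had signals of 352, 322 and 269 on the knockout arrays, against 1013, 709 and 1029 on the wild type arrays, on its brightest probe set, 1420295_x_at. The log2 change there was −1.53, so part of the signal remained. Probe set 1429400_at fell the most, with 107, 111 and 127 in knockout, against 821, 861 and 834 in wild type, a change of −2.87. Probe sets 1450787_at and 1441831_x_at had changes of −2.10 and −1.50. The signals are MAS5 values on a linear scale with a trimmed mean of 150 on each array. All 14 and 13 genes on the marker lists of the early and the last proximal tubule passed the filter on dim signals, and Lrp2, which encodes megalin, was at 4322 ± 211 in knockout and 4176 ± 272 in wild type (SD, n = 3 each). Of the 6 arrays, knockout array 3 and wild type array 2 were washed on the second fluidics station, and knockout array 3 alone had another solution lot. Its median signal was 48.8, while that of the other 5 arrays lay between 40.9 and 45.3. Pearson's r of log2 signals, across probe sets, was 0.974 to 0.984 within groups and 0.964 to 0.975 between them. Markers of other cells were also present: leukocyte markers summed to 2701 to 2846 in knockout and 1851 to 1886 in wild type. Of 8 tested, 3 rose, Cd74, Csf1r and Laptm5, while 3.24% of all tested genes rose. In such bulk samples a change in the number of cells of a type and a change in RNA per cell cannot be told apart.

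None of the 10 transporter genes passed the test between knockout and wild type tubules when each was read by its brightest probe set. The test was limma's moderated test on log2 signals, with Benjamini-Hochberg adjustment over all 11620 genes tested and a threshold of 0.05. At that threshold 753 genes passed, 6.48% of those tested, with 3.24% higher and 3.24% lower in knockout. An unadjusted p under 0.05 was reached by 4 of the 10 members, Slc5a8, Slc2a4, Slc2a1 and Slc16a1, against 19.4% of all genes. The median log2 change, always knockout minus wild type, was −0.02 over the 10 members and 0.01 over all tested genes. The median of the absolute log2 changes was 0.16 for the members and 0.13 for all genes. No member differed by more than 0.31 on the log2 scale, and the bound of a 95% interval farthest from 0 was 0.55. The 3 knockout arrays lay entirely above the 3 wild type arrays for 3 members and entirely below for 2, while 25.2% of all tested genes had groups that did not overlap.

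**Figure D1:**
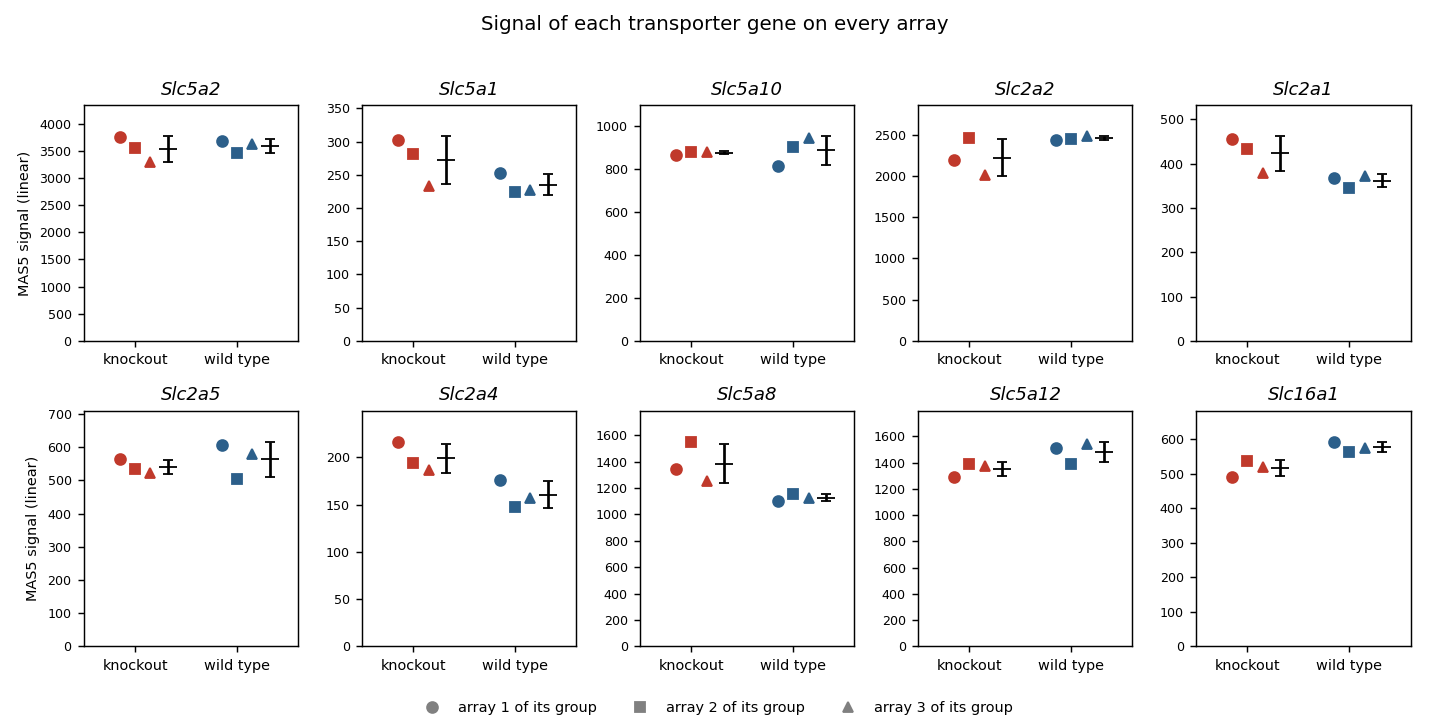
MAS5 signal on a linear scale (vertical axis, from 0, a separate scale for each panel) of the 10 transporter genes on each array, read by the brightest probe set of each gene. Coloured symbols are single arrays, knockout left and wild type right, and black bars give the mean ± SD of 3 arrays. The groups are apart for Slc2a1, Slc2a4, Slc5a8, Slc5a12 and Slc16a1 and overlap for the others.

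None of the 3 sodium-coupled sugar carriers passed the test, and the groups overlapped for each of them. Slc5a2 had signals of 3759, 3552 and 3286 in knockout tubules, against 3688, 3452 and 3630 in wild type tubules. The log2 change of −0.02 had a 95% interval of −0.18 to 0.13 (limma adjusted p = 0.898). A second probe set of Slc5a2, 1419166_at, read 1538, 1401 and 1598 in knockout and 1555, 1477 and 1393 in wild type, a log2 change of 0.04. Both readings thus had intervals that reached no further than 0.20 on either side of 0. Slc5a10, which encodes SGLT5, a carrier of fructose and mannose in the kidney, had signals of 868, 881 and 879 in knockout, against 815, 905 and 944 in wild type. The knockout arrays lay inside the wild type range, with a log2 change of −0.02 and an interval of −0.17 to 0.13 (limma adjusted p = 0.93). For Slc5a1 the signals were 303, 282 and 233 in knockout and 253, 224 and 227 in wild type. Knockout arrays 1 and 2 stood above every wild type array and array 3 did not, and the log2 change was 0.21 with an interval of −0.04 to 0.45 (limma adjusted p = 0.341). That change was 0.13 without knockout array 1 and 0.32 without knockout array 3, and passed in neither case. The second probe set of Slc5a1, 1455431_at, had signals of 136, 168 and 120 in knockout and 119, 166 and 118 in wild type. Array 2 was the high one in both groups. The change on this probe set was 0.08 with a wider interval, −0.30 to 0.46. The difference was 0.35 on the first station and −0.47 on the second, where knockout array 3 is set against wild type array 2.

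Among the facilitative sugar carriers, a rise was found on a single probe set of Slc2a4. Slc2a4 encodes GLUT4, the carrier that insulin moves to the surface of muscle and fat cells. Its probe set 1415959_at had signals of 208, 183 and 199 in knockout tubules, against 119, 119 and 116 in wild type tubules. The groups stood well apart, with means of 197 ± 12.6 and 118 ± 2.14 (SD, n = 3 each), a 1.66-fold difference. In the fit over all 22519 kept probe sets its log2 change was 0.74 with an SE of 0.10 (limma adjusted p = 0.00229). It was the only 1 of 16 kept member probe sets that passed, while 4.76% of all kept probe sets did, 2.29% higher and 2.46% lower in knockout. The knockout arrays lay above all wild type arrays for 5 of the 16 and below for 2, and 23.2% of all kept probe sets had groups apart in this way. The change of 1415959_at was 0.74 on the first fluidics station, with 2 arrays a group, and 0.73 on the second, with 1 array a group. The 1 knockout and 1 wild type array of the second station also differed in solution lot.

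The other probe set of Slc2a4, 1415958_at, was slightly brighter and therefore represented the gene. It had signals of 216, 194 and 187 in knockout, against 176, 148 and 157 in wild type. These groups did not overlap either, but the log2 change was 0.31 with a 95% interval of 0.07 to 0.55 in the fit over genes (limma adjusted p = 0.14). The changes of both probe sets differed by 0.42 on the log2 scale. An exact two-sided permutation test of that difference over the arrays gave p = 0.1, the smallest value that 3 against 3 arrays allow. With the mean of both probe sets in place of the brighter, the change of Slc2a4 was 0.52 (limma adjusted p = 0.00575), so the call on this gene rests on how its probe sets are combined. Of 10 marker genes of fat and skeletal muscle on the array, 8 were too dim for the filter, with group means between 2.85 and 23.8. The tested ones, Fabp4 and Ckm, had changes of −0.13 and −0.03 (limma adjusted p = 0.414 and 0.952). GLUT4 is also known from podocytes of the glomerulus. Of 5 tested podocyte markers 2 rose, Synpo and Nphs1, while 3.24% of all tested genes rose. Sums of the 5 were 1271 to 1542 in knockout and 1023 to 1069 in wild type. The part of podocytes in the signal of Slc2a4 was not tested.

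Slc2a2 encodes GLUT2, the basolateral exit route for glucose in the early proximal tubule. Its signals were 2191, 2455 and 2013 in knockout, against 2438, 2453 and 2483 in wild type. The wild type arrays were close together, knockout array 2 lay among them, and the other two were lower. The log2 change was −0.15 with an interval of −0.32 to 0.02 (limma adjusted p = 0.316). It was −0.08 without knockout array 3 and −0.23 without knockout array 2. Slc2a5 encodes GLUT5, a fructose carrier, and had signals of 564, 533 and 522 in knockout and 606, 504 and 579 in wild type. The groups overlapped, with a log2 change of −0.06 and an interval of −0.24 to 0.12 (limma adjusted p = 0.762).

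Slc2a1 encodes GLUT1, a glucose carrier found in many cell types and, in the kidney, in later tubule segments. Its brightest probe set, 1434773_a_at, read 455, 434 and 380 in knockout, against 368, 345 and 372 in wild type. All knockout arrays were higher, though knockout array 3 exceeded wild type array 3 only slightly. The log2 change was 0.22 with an interval of 0.04 to 0.41 (limma adjusted p = 0.169). Both other probe sets were above 0 as well. Probe set 1426600_at had a change of 0.13, with signals of 269, 277 and 258 in knockout and 257, 230 and 250 in wild type. Probe set 1426599_a_at had 315, 365 and 228 in knockout and 246, 230 and 195 in wild type, a change of 0.42 (limma adjusted p = 0.211). That last value moved with single knockout arrays: it was 0.61 without array 3 (adjusted p = 0.0242) and 0.27 without array 2 (adjusted p = 0.454). The difference was 0.63 on the first station, with 2 arrays a group, and −0.01 on the second, with 1 array a group. Markers of later nephron segments did not move as one. Of all tested genes, 3.24% rose and 3.24% fell at the same threshold. Summed signals of 6 thick ascending limb markers were 13959 to 15408 in knockout and 11792 to 12331 in wild type, with 2 of 6 genes rising, Umod and Slc12a1, and 4 not passing. Of 5 tested markers of the distal convoluted and connecting tubule 3 rose, Calb1, Pvalb and Trpm6, and 2 did not pass. Their sums were 15932 to 16795 in knockout and 13530.5 to 15847 in wild type, which nearly meet. Of 6 tested collecting duct markers 2 rose, Slc4a1 and Slc26a4, and 2 fell, the water channel genes Aqp2 and Aqp3 at −0.49 and −0.53. The collecting duct sums were 2957 to 3202 in knockout and 3094 to 3478 in wild type. Their part in the signal of Slc2a1 was not tested. No erythroid marker passed the filter, and Hba-a1, a globin of red cells, had 26.3 ± 14.9 in knockout and 36.8 ± 13.1 in wild type (SD, n = 3 each).

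**Figure D2:**
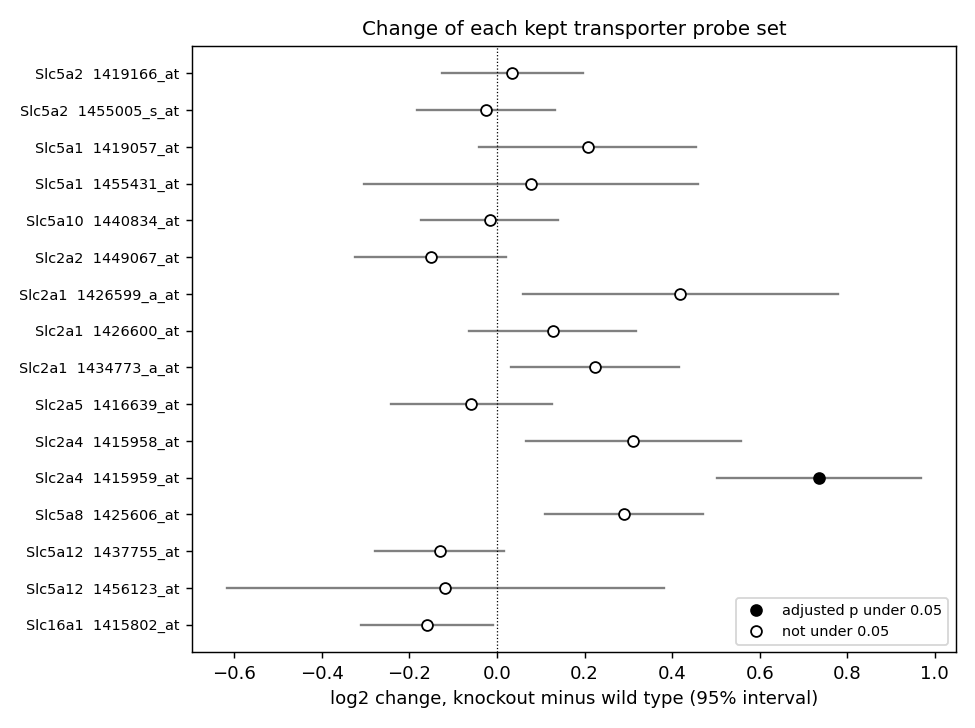
Log2 change, knockout minus wild type (horizontal axis), of the 16 transporter probe sets that passed the filter, with 95% intervals from the limma fit over all kept probe sets. The filled point, 1415959_at of Slc2a4 at 0.74, is the one with an adjusted p under 0.05, and open points did not pass.

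Slc5a8 came nearest to the threshold of all 10 genes, and the monocarboxylate carriers did not lie on the same side of 0. Slc5a8 encodes SMCT1, a sodium-coupled carrier of lactate, which in mouse kidney is known from the last part of the proximal tubule. Its signals were 1347, 1551 and 1258 in knockout tubules, against 1106, 1157 and 1123 in wild type tubules. Every knockout array was above every wild type array, with a wider spread in knockout: the means were 1385 ± 150 and 1129 ± 26.1 (SD, n = 3 each, knockout and wild type). The difference was 1.22-fold, a log2 change of 0.29 with an SE of 0.08 and an interval of 0.12 to 0.46. It missed the threshold in the fit over genes (limma adjusted p = 0.0573). It passed in 5 of 16 other settings, among them quantile normalization (adjusted p = 0.0277) and the fit without knockout array 3 (0.0230, change 0.36). It did not pass without any other single array, with adjusted p up to 0.189. The difference was 0.38 on the first station, with 2 arrays a group, and 0.12 on the second, with 1 array a group.

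Slc5a12 encodes SMCT2, the related carrier with lower affinity for lactate. Its signals were 1294, 1386 and 1376 in knockout, against 1508, 1392 and 1541 in wild type. All knockout arrays were lower, but knockout array 2 and wild type array 2 were nearly equal. The log2 change was −0.13 with an interval of −0.27 to 0.01 (limma adjusted p = 0.307). The second probe set, 1456123_at, was uneven within groups: it had 1212, 1320 and 687 in knockout and 1196, 1324 and 887 in wild type. Array 3 was the low one in both groups, and its change of −0.12 had an interval of −0.62 to 0.38. That probe set stood at 0.18 without knockout array 3, at −0.29 without wild type array 3 and at −0.30 without knockout array 2.

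Slc16a1 encodes MCT1, which moves lactate and pyruvate together with protons. Its signals were 492, 536 and 520 in knockout, against 592, 563 and 574 in wild type. Every knockout array was below every wild type array, with means of 516 ± 22.4 and 576 ± 14.8 (SD, n = 3 each, knockout and wild type). The log2 change of −0.16 had an interval of −0.31 to −0.02, and the gene did not pass (limma adjusted p = 0.204). A second probe set, 1446274_at, had signals between 1.31 and 3.54 on all 6 arrays and was the one member probe set below the filter. Bsg, which encodes basigin, the partner that carries MCT1 to the membrane, had 2743 ± 84.9 in knockout and 2727 ± 128 in wild type (SD, n = 3 each), a log2 change of 0.01.

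The carriers differ in where along the proximal tubule they are known to act, so marker lists of the segments were read on the same arrays. Of 14 markers of the first and second segments 1 rose and 3 fell, with a median log2 change of −0.02. Over all tested genes 3.24% rose and 3.24% fell. The list genes that fell were Snhg11, a noncoding RNA, at −1.40, and the amino acid carrier genes Slc6a19 and Slc7a7, at −0.51 and −0.47. Pter rose at 0.26. Over the whole list the summed signals were 41137 to 44708 in knockout and 41152 to 46296 in wild type. Of 13 markers of the last segment 3 rose and none fell, and 11 had a change above 0, with a median of 0.09. Those sums were 40465 to 44329 in knockout and 36478 to 40370 in wild type. The risers of the last segment were Aadat, an aminotransferase of the kynurenine pathway, at 0.98, the amino acid carrier gene Slc7a13 at 0.37, and Slc6a18, another amino acid carrier gene, at 0.26. The part of the segment mix in the signal of the transporters was not tested.

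Promoters are shown for the 3 members that were apart between groups and have an entry in the RefSeq table, so that their sequence can be read beside the changes. Each holds 250 bases before to 50 after an annotated start, on the plus strand of GRCm38.p6, read 5′ to 3′: chr10:88885742-88886041 for Slc5a8, chr4:119108495-119108794 for Slc2a1 and chr3:104638414-104638713 for Slc16a1. Capitals mark matches to any of 5 short motifs, searched on both strands. The GC box was searched as GGGCGG. The E-box was searched as CACGTG. The TATA box was searched as TATAAA. The nuclear receptor half-site was searched as AGGTCA. For the factor HNF1 the half-site was GTTAAT.
Slc5a8: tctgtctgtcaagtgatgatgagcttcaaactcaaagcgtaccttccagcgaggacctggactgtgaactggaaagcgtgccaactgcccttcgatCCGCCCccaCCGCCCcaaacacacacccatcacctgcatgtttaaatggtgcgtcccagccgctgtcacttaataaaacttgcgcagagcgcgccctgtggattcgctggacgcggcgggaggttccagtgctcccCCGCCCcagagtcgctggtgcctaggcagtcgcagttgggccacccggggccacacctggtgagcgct
Slc2a1: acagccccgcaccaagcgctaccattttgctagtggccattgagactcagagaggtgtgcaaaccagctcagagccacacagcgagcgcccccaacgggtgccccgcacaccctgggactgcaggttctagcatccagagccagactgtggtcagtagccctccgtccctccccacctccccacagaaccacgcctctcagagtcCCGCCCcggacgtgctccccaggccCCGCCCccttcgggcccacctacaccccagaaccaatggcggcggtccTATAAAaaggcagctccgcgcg
Slc16a1: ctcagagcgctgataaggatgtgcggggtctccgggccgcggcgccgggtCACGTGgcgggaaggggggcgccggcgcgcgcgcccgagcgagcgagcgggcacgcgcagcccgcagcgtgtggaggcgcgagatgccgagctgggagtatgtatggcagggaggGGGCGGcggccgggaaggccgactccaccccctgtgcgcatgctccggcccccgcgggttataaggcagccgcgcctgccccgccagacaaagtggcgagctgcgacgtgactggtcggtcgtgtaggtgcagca
The window of Slc5a8 holds 3 GC boxes and none of the other motifs. That of Slc2a1 holds 2 GC boxes and 1 TATA box, and that of Slc16a1 holds 1 GC box and 1 E-box. None of these 3 genes passed the test, and a link between motifs and changes was not tested. A GC box is found in 35.7% of the 32851 promoters in the table, a TATA box in 13.6% and an E-box in 7.15%. Bases G and C make up 60.7%, 65.3% and 73.7% of the windows of Slc5a8, Slc2a1 and Slc16a1. The table has promoters for 7 of the 10 members, and 4 of their 8 windows hold a GC box. Among them is Slc2a5, whose groups overlapped, also with 3 GC boxes. An E-box is in 2 of the 8, those of Slc16a1 and of Slc5a1, whose groups overlapped too. A nuclear receptor half-site is in 2 of the 8, those of Slc2a2 and of 1 start of Slc5a10, against 16.3% of all promoters. Slc5a2, Slc5a12 and Slc2a4 have no entry.

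Other genes of the same families gave no call. Of 29 other members of the SLC2, SLC5 and SLC16 families, 17 were tested and 10 were below the filter. None of the 17 passed limma's threshold, against 6.48% of all genes, and 3 had an unadjusted p under 0.05, against 19.4% of all genes. A further 2 lack a single-symbol probe set. The smallest p belonged to Slc16a10, a carrier of aromatic amino acids, with 383 ± 19.6 in knockout and 457 ± 16.1 in wild type (SD, n = 3 each), a log2 change of −0.26 (adjusted p = 0.0646). Slc16a9, a carnitine carrier, was at 0.17 (adjusted p = 0.133). In the SLC5 family Slc5a3, a myo-inositol carrier, stood at 0.15 (adjusted p = 0.441) and Slc5a9, a carrier of mannose and related sugars, at −0.17 (adjusted p = 0.493). In the SLC2 family Slc2a9, a urate carrier, and Slc2a12 had changes of 0.10 and 0.08 (adjusted p = 0.839 and 0.86).

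Partners and regulators of the carriers also gave no call, with 12 of 15 tested and a median log2 change of 0.11, while 6.48% of all genes passed. An unadjusted p under 0.05 was reached by 3 of the 12, against 19.4% of all genes. Nedd4l, a ubiquitin ligase that acts on membrane transporters, had 708 ± 12.7 in knockout and 615 ± 26.8 in wild type (SD, n = 3 each), a change of 0.20 (limma adjusted p = 0.0937). Hnf4a, a transcription factor of proximal tubule cells, was at 0.19 and Mlxipl, which encodes the glucose-responsive factor ChREBP, at 0.14 (adjusted p = 0.194 and 0.205). Pdzk1, a scaffold of the brush border, and Pdzk1ip1, which encodes the SGLT2 partner MAP17, were at 0.12 and 0.11 (adjusted p = 0.413 and 0.702).

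Among 16 tested enzymes of sugar and lactate metabolism, 1 fell and none rose, while 3.24% of all tested genes fell and 3.24% rose. The one that fell was Pdk4, pyruvate dehydrogenase kinase 4, which restrains the oxidation of pyruvate. It had 80.3 ± 11.1 in knockout and 200.4 ± 15.5 in wild type (SD, n = 3 each), a log2 change of −1.33 with an SE of 0.14 (limma adjusted p = 0.000197). Pcx, pyruvate carboxylase, had 2468 ± 41.6 in knockout and 2877 ± 56.1 in wild type, a change of −0.22 just outside the threshold (adjusted p = 0.0503). None of the tested enzymes that use or release the carried substrates passed. The highest change of the list was that of Ldhd, another lactate dehydrogenase gene. It was 0.26 with a 95% interval of 0.05 to 0.47 (limma adjusted p = 0.155). Khk, the ketohexokinase that starts fructose breakdown, was at 0.07, Ldha and Ldhb, the lactate dehydrogenase subunits, at 0.09 and 0.14, and G6pc, glucose-6-phosphatase, at −0.09. The median of the enzyme list was −0.07.

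**Figure D3:**
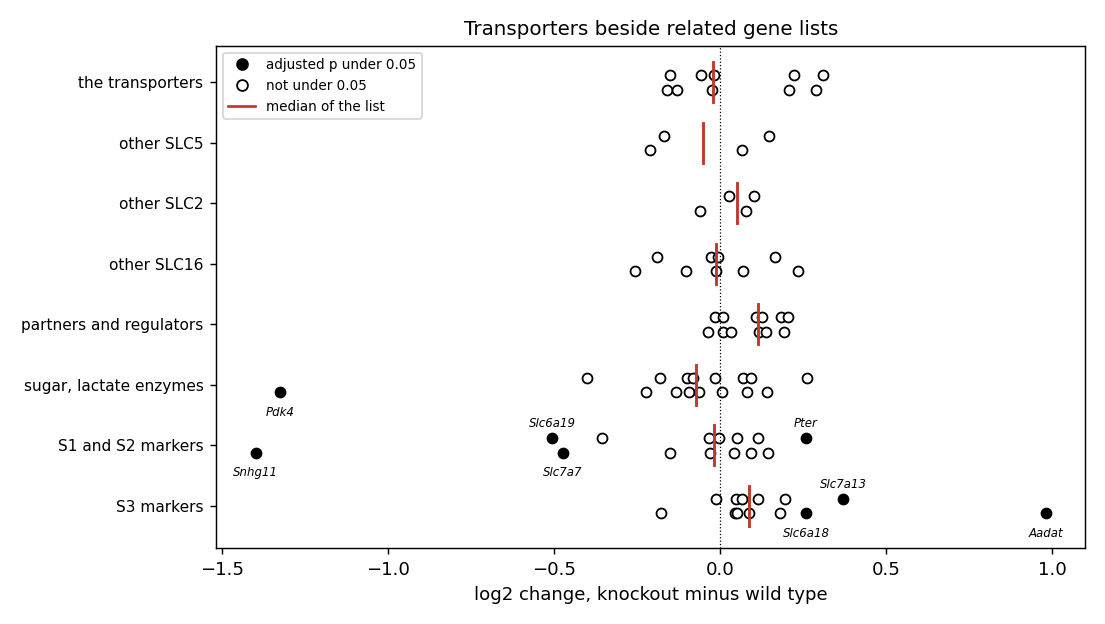
Log2 change, knockout minus wild type (horizontal axis), of the tested genes of the transporter family and of related lists (rows), 1 point a gene, with the median of each list as a red bar. Filled points have an adjusted p under 0.05. The 10 transporters lie between −0.16 and 0.31, all open, and Pdk4 at −1.33 is the filled point among the enzymes.

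**Figure D4:**
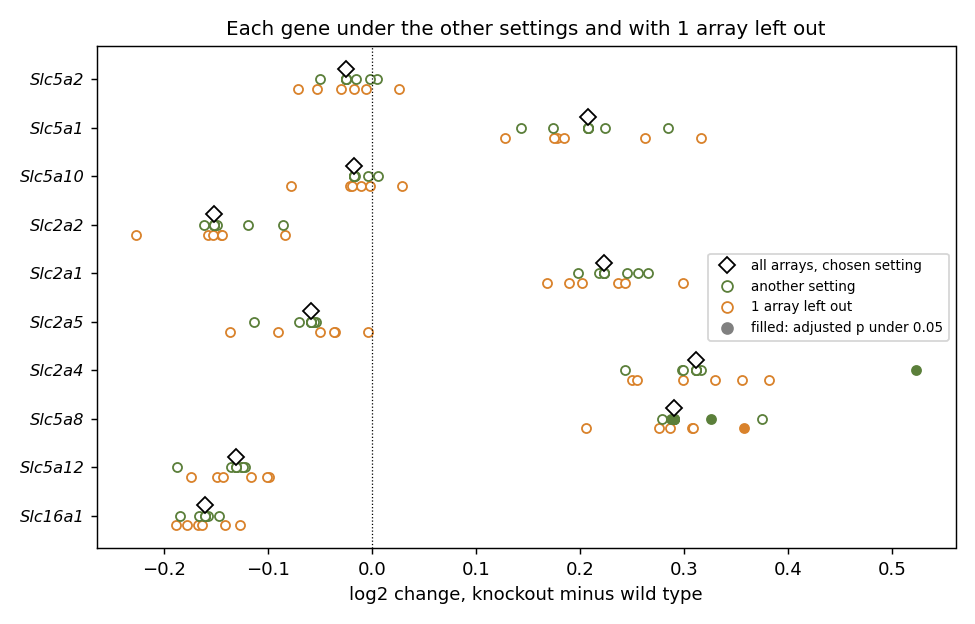
Log2 change, knockout minus wild type (horizontal axis), of each transporter gene under the chosen setting (diamonds), other settings (green) and with 1 array left out (orange). Filled points have an adjusted p under 0.05, which was reached by Slc5a8 in 5 of 16 alternatives and by Slc2a4 in 1 of 16.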

How the data were processed

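Transcript levels were measured on 6 Affymetrix Mouse430_2 arrays. The authors deposited intensities, not logged, and the submitters' processing notes name GCOS 1.4 and MAS5 as the software. The genome build is not given in the sources used here. Detection calls are not used here, so dim signals could not be told from background. Arrays carry no read depth, and their number limits the precision: the median SE of a log2 change was 0.115.

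Of 45101 probe sets 64 controls were left out. Signals were turned to log2, and probe sets were kept if their mean over all arrays reached the median (a signal of 41.9), which left 22519. Each gene was read by its brightest kept probe set, which gave 11620 genes. The two-sided test of knockout against wild type used limma 3.58.1 (lmFit, then eBayes with a trend on mean signal; R 4.3.3), which had 4 residual degrees of freedom. A second fit took every kept probe set. Steps were tested on simulated data. Fold changes are ratios of geometric means. Tables were made with Python 3.11.15 and pandas 2.3.3.

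The members and lists were chosen with earlier results of these data known. The rule for named genes took all members with their probe sets, Clcn5, and from each list of other family members, partners or enzymes the genes past the threshold or else up to 2 with the smallest p. From marker lists set beside a result it took up to 2 with the smallest p. Any other gene named was chosen after its values were seen. All 10 members matched RefSeq by gene identifier. Alternatives changed the signal scale, normalization, filter, probe set choice, variance model, array weights, station, replicate block and threshold, and left out each array in turn with probe sets as chosen on all arrays.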

Additional observations from a re-analysis of the deposited data

How the results depend on the processing

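The count of members past the threshold, 0, became 1 under quantile normalization, a filter at the 65th percentile, array weights and a threshold of 0.1, each time Slc5a8, and 1 with averaged probe sets, which was Slc2a4. It was 0 or 1 with an array left out. Member probe sets past the threshold numbered 2 under quantile normalization, array weights and the threshold of 0.1, and 1 to 3 with an array left out. The count of all genes was 487 without an intensity trend, 458 on station 1 alone and 503 to 733 with an array left out. That of probe sets was 615, 646 and 660 to 1013 in the same order. Probe set 1415959_at of Slc2a4 passed in all 15 alternatives, with adjusted p up to 0.03. The log2 change of Slc5a2 turned to 0.0053 with averaged probe sets, and was −0.071 to 0.026 with an array left out, above 0 without knockout array 3. That of Slc5a10 turned to 0.0056 with array weights, and was −0.077 to 0.029 with an array left out, above 0 without wild type array 3. The cause was not tested. With the replicate number as a block, 1 member passed, Slc5a8 (adjusted p = 0.0395), and 765 genes. Deviations of same-numbered arrays had r of −0.04 to 0.04, and not every array correlated best with its own number. No pairing by number was thus seen across all kept probe sets. Such an r cannot exclude a pairing, and the sample titles do not state one. Fits within the second station, with 1 array a group, give differences only. Dim probe sets such as 1446274_at allow no statement.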

Other observations

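Knockout array 3 tended to be the low one among the knockout arrays for these transporters. Of the 16 kept member probe sets, 11 had their lowest knockout signal on array 3, 3 on array 1 and 2 on array 2, while over all kept probe sets the share with the lowest knockout signal on array 3 was 32.8%. Several of these probe sets belong to 1 gene and all share the same RNA, so the counts are not independent. The median SD of the log2 signal over the kept member probe sets was 0.10 in knockout and 0.08 in wild type, against 0.15 and 0.12 over all kept probe sets. Neither comparison with all kept probe sets was matched for signal, so neither shows a trait particular to the transporters.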
